A study of Mus musculus with 36 samples.

Results

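The UDP-glucuronosyltransferases (UGT), cytosolic sulfotransferases (SULT) and glutathione S-transferases (GST) of mouse liver were followed across 36 arrays. Members were chosen by gene name: probes named in the scanner files as Ugt1a, Ugt2a, Ugt3a, Ugt2b, Sult1 to Sult6 or a numbered Gsta, Gstk, Gstm, Gsto, Gstp, Gstt or Gstz gene. To be kept, a probe needed the scanner's flag for a signal well above background on 6 or more of the 36 arrays, and each gene was represented by its brightest kept probe. The array carried 76 such probes for 53 genes, and 68 probes for 50 genes were kept, of 23054 genes tested in all. These were 14 UGT, 17 SULT and 19 GST genes. Sult2b1, Sult6b1 and Gstt4 were not well above background often enough to be tested. Liver RNA came from male mice aged 11 weeks, fed chow freely under 12 h of light and 12 h of dark. Mice with a floxed exon 4 of the insulin receptor gene Insr on a C57BL/6J cross carried a tamoxifen-inducible Cre driven by the liver promoter of transthyretin (group IRLKO, called knockout), and were compared with IRLWT mice (called control). Samples were taken at zeitgeber times ZT8, ZT12 and ZT16, with lights off at ZT12, and each of the 6 groups held 6 mice with 1 array each. The labels give neither the time of tamoxifen nor whether controls carried Cre.

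The enzymes carry out phase II conjugation, in which a polar group is joined to a drug, hormone, bile acid or bilirubin so that it can be exported. UGT enzymes sit in the endoplasmic reticulum and transfer a sugar, mostly glucuronic acid from UDP-glucuronic acid. SULT enzymes are cytosolic and transfer sulfate from the donor PAPS. GST enzymes join glutathione to electrophiles, and some have other tasks, such as Gstz1 in tyrosine breakdown. In mouse liver several of these genes are known to differ between the sexes: the Sult2a1 group and Sult3a1 are female-biased and Gstp1 is male-biased.

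Levels are given in log2 units, with 0 set at the 75th percentile of the array they come from. A gene is called higher or lower when its adjusted p lay under 0.05 in limma's moderated test (Benjamini-Hochberg over all 23054 genes). Insr, the deleted gene, lay between -1.81 and -1.01 in ZT8 controls and between -3.54 and -2.94 in ZT8 knockouts, without overlap, and its groups did not overlap at ZT12 or ZT16 either. The log2 differences at ZT8, ZT12 and ZT16 were -1.77, -1.88 and -1.65, each ± 0.13 (SE). Ttr, whose promoter drives the Cre, was itself lower in knockouts with log2 differences of -1.12, -1.02 and -0.97. Xist was well above background on 0 of the 36 arrays. In whole liver, fewer cells of a type and less RNA per cell cannot be told apart. The arrays had 53.7% to 63.1% of spots well above background. Control arrays ZT8 replicate 6, ZT12 replicate 2, and ZT16 replicates 3 and 6 stood apart from their groups in several SULT genes while their Insr was at the control level, and knockout ZT8 replicate 3 stood apart in UGT, GST and SULT genes. All 50 members were refitted without each of these arrays except control ZT16 replicate 3, and values that changed a call are given beside the result. The controls left out were chosen after the data were seen, so a call gained without 1 of them is not independent support.

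Some of these genes arose by recent duplication, so probe sequences decide what a value can say. Among 1225 pairs of the 50 probes, 4 pairs were at least 80% identical over at least 35 aligned bases. Of the 4, 3 joined Sult2a1, Sult2a2 and Sult2a4, with 54 of 59, 51 of 54 and 47 of 53 aligned bases identical. The pair Ugt2b37 and Ugt2b5 had 46 of 55 identical. Probes were compared with each other only, so a probe outside these pairs may still read another transcript. A window of 30 bases of the Sult2a1, Sult2a2 and Sult2a4 probes is shown because signal of one of these transcripts may reach the probe of another. Capitals mark the 5 positions at which the 3 probes differ. The windows lie on mm9 at chr7:14381626-14381655 (minus strand), chr7:14364933-14364962 (plus strand) and chr7:14495056-14495085 (minus strand).
Sult2a1: ttgttGtGtatcttgaatacctAGatGtgg
Sult2a2: ttgttCtAtatcttgaatacctGAatAtgg
Sult2a4: ttgttCtGtatcttgaatacctAGatGtgg

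The UGT1A locus raises a different question, since its genes have their own first exons and share the exons at the 3′ end. RefSeq on GRCm38.p6 lists 9 Ugt1a genes with 9 different starts, and 7 of them end at the same base. Only Ugt1a10, Ugt1a6a and Ugt1a6b are named on the array. For Ugt1a6b it holds a probe far upstream, called the first-exon probe here, and 2 probes near the 3′ end, called shared-exon probes. The names rest on probe position and the known layout of the locus, since exons on mm9 were not used here. The first 30 bases of the first-exon probe lie at chr1:90004249-90004278 and those of the brighter shared-exon probe at chr1:90115493-90115522, both on the plus strand and 111244 bases apart. These are shown because the probes gave different answers for 1 gene name.
Ugt1a6b first-exon probe: tccttacaccagaattctctgtggctgtta
Ugt1a6b shared-exon probe: accaaagtatgttctaaggcaagtacatct

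Upstream sequence was available for 33 of the 50 members, taken from RefSeq (GRCm38.p6) as the 250 bases before each gene's start. The following 4 short motifs were searched on both strands: GTTAAT (part of the HNF1 site), AGGTCA (the core read by many nuclear receptors), GTAAACA (FOXO core) and TTCNNNGAA (STAT site). GTTAAT stood in 6 of 11 SULT promoters, 4 of 12 UGT promoters and 1 of 10 GST promoters, against 6.43% of all 32851 promoters of that length. AGGTCA stood in 5 of 12 UGT promoters, 1 of 11 SULT promoters and 1 of 10 GST promoters, against 14% of all. GTAAACA stood in 3 of 12 UGT promoters and in 0 of 11 SULT and 0 of 10 GST promoters, against 3.17% of all. TTCNNNGAA stood in 1 of 12 UGT, 1 of 11 SULT and 0 of 10 GST promoters, against 7.02% of all. The promoters share ancestry and are not independent. In the best ungapped alignment with a shift allowed, those of Ugt2b37 and Ugt2b38 had 222 identical bases, and those of Sult2a5 and Sult2a6 had 143. The overlap of a shifted pair is shorter than 250 bases. The GTTAAT matches of Sult2a4, Sult2a5 and Sult2a6, which lie in the same cluster, are shown in capitals, at chr7:13989589-13989838 (minus strand), chr7:13623717-13623966 (plus strand) and chr7:14254871-14255120 (minus strand). Sult2a3 of that cluster also had matches, 240 and 51 bases upstream, and is not shown. A match is a description of the letters and not a bound site.
Sult2a4: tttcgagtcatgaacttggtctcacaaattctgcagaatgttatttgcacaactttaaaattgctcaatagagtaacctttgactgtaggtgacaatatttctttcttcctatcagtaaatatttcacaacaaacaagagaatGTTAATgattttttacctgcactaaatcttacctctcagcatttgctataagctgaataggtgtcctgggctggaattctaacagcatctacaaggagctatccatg
Sult2a5: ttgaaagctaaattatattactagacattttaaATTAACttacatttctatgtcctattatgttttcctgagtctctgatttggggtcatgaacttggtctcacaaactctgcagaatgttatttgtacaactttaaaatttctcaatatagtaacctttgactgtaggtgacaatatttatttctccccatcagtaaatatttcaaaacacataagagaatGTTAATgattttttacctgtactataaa
Sult2a6: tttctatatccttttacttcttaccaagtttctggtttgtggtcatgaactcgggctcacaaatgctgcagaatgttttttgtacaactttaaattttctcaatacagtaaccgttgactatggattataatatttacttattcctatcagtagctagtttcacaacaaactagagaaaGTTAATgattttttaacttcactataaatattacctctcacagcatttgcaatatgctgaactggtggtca

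AGGTCA stood close to the annotated starts of Ugt2b5 and Ugt2b37, 22 and 39 bases upstream, and of Ugt2b36 and Ugt2b38, both 25 bases upstream. In Ugt2b35 it stood 215 bases upstream. The promoters of Ugt2b5 and Ugt2b37 are shown as examples, and had 130 bases identical in an ungapped alignment. They lie at chr5:87140341-87140590 and chr5:87254789-87255038, both on the minus strand. Capitals mark the match.
Ugt2b5: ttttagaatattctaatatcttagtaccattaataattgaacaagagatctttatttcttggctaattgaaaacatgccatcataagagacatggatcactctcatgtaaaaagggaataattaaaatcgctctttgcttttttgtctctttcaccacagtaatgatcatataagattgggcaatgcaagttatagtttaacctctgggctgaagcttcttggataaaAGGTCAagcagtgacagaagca
Ugt2b37: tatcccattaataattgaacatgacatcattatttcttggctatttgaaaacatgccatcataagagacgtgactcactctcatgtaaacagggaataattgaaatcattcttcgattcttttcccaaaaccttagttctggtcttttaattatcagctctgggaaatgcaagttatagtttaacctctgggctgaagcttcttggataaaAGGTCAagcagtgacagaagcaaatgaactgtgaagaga

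The families differed in how they stood in knockouts against controls. At ZT8, 35 of the 50 members were called, against 35.4% of all genes tested: 13 higher and 22 lower, where 16.7% of all genes were higher and 18.7% lower. The UGT family had 1 of 14 higher and 7 lower, the GST family 3 of 19 higher and 11 lower, and the SULT family 9 of 17 higher and 4 lower. The median log2 difference was -0.41 for UGT, -0.46 for GST and 1.32 for SULT genes, against 0.01 for all genes. The groups of 6 did not overlap for 21 members, against 15.5% of all genes. UGT and GST genes were mostly lower by less than 2-fold, and SULT genes moved far in both directions.

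At ZT12, 35 members were again called, against 42.2% of all genes, with 8 higher (19.6% of all genes) and 27 lower (22.6%). No UGT gene was higher and 10 of 14 were lower, 2 of 19 GST genes were higher and 12 lower, and 6 of 17 SULT genes were higher and 5 lower. Medians were -0.67, -0.48 and 0.68, against -0.02 for all genes, and 20 members did not overlap between groups (21.3% of all genes). At ZT16, 30 members were called (39.9% of all genes), 2 higher (19.9%) and 28 lower (20%). The UGT family then had 0 higher and 9 lower, GST 2 higher and 13 lower, and SULT 0 of 17 higher and 6 lower. Medians were -0.48, -0.52 and -0.37, against 0.00 for all genes. Without control ZT16 replicate 6 the SULT median was 0.02, and 4 members were higher and 27 lower. With array weights the SULT median was -0.11 and 4 members were higher, as were 4 with quantile normalization, with normexp and quantile normalization and in the authors' table, and 1 with probes well above background on all arrays. With all arrays, 19 members did not overlap at ZT16 (19.2% of all genes). Every called member at each time kept its direction within each of the 3 wash batches.

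A gene that passes the filter only where it is high had to differ, which touches SULT genes most. All 14 UGT genes and 18 of 19 GST genes were well above background on all 36 arrays, but only 8 of 17 SULT genes were. The 9 others were Sult1e1, Sult3a1 and Sult2a1 to Sult2a7. Among the 8 SULT genes measured everywhere, 3 were higher and 3 lower at ZT8, 2 and 4 at ZT12, and 0 and 5 at ZT16. Their median log2 differences were -0.26, -0.47 and -0.66 in that order, so the positive SULT medians at ZT8 and ZT12 came with the genes not measured on every array. With background taken by normexp and quantile normalization, the median over all 17 SULT genes was 0.42 at ZT8.

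**Figure D1:**
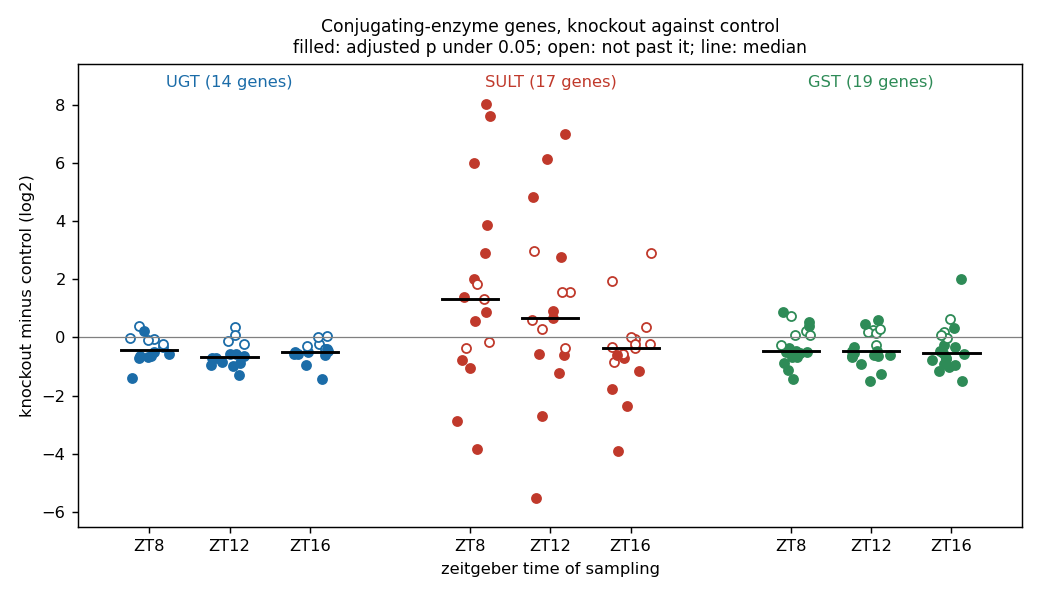
Each point is 1 gene, the vertical axis is the knockout minus control difference in log2 units and the horizontal axis is zeitgeber time, for 14 UGT, 17 SULT and 19 GST genes; filled points were called and lines are medians. UGT and GST points cluster a little below 0 at all times, while SULT points spread from -5.50 to 8.03.

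The UGT2B and UGT2A genes lie side by side on chromosome 5 and encode the enzymes that glucuronidate steroids, bile acids and many drugs. Most of them were lower in knockouts at all 3 times. Ugt2b1, which glucuronidates estrogens among others, had a lowest, median and highest level of 3.52, 3.81 and 3.99 in ZT8 controls and 1.30, 2.62 and 2.85 in ZT8 knockouts. At ZT12 it was 3.85, 4.17 and 4.34 against 2.42, 2.91 and 3.31. At ZT16 it was 3.53, 4.21 and 4.27 against 2.29, 2.64 and 2.79. No knockout reached the lowest control of its time, and the log2 difference was -1.39 ± 0.18 (SE; adjusted p = 5.13e-07, limma) at ZT8, -1.27 ± 0.18 (1.57e-06) at ZT12 and -1.44 ± 0.18 (2.16e-07) at ZT16.

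Ugt2b5, Ugt2b36, Ugt2b37 and Ugt2b38 had nearly the same differences as each other. Ugt2b5 lay at 6.30, 6.50 and 6.63 in ZT8 controls and 5.04, 5.85 and 6.17 in ZT8 knockouts. At ZT12 it lay at 6.24, 6.64 and 7.04 against 5.35, 5.82 and 5.98, and at ZT16 at 5.89, 6.24 and 6.57 against 5.19, 5.69 and 6.02. The groups were apart at ZT8 and ZT12 and overlapped at ZT16. Its differences were -0.69 ± 0.15 (SE; adjusted p = 0.000681, limma), -0.93 ± 0.15 (1.13e-05) and -0.58 ± 0.15 (0.00302). Ugt2b36 differed by -0.64, -0.86 and -0.61, Ugt2b37 by -0.70, -0.98 and -0.55, and Ugt2b38 by -0.58, -0.83 and -0.51 at the same times, all called. Ugt2b37 and Ugt2b5 are the pair with alike probes, so their values may share signal. Without knockout ZT8 replicate 3, all 4 stayed called at ZT8.

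Ugt2a3, a liver and intestinal enzyme active on bile acids, was lower at every time with no overlap. Controls lay at 5.29, 5.43 and 5.49 at ZT8 and 5.54, 5.73 and 6.04 at ZT16, and knockouts at 4.42, 4.95 and 5.23 at ZT8 and 4.64, 4.80 and 5.01 at ZT16. The differences were -0.49 ± 0.10 (SE; adjusted p = 0.000356, limma) at ZT8, -0.57 ± 0.10 (4e-05) at ZT12 and -0.95 ± 0.10 (1.1e-08) at ZT16. Whether this difference varied with time was tested by limma's F test, with an adjusted p of 0.0724. Ugt2a1 was lower at ZT12 (-0.64) and ZT16 (-0.41), and Ugt2b35 was lower at ZT12 (-0.70); neither was called at the other times. Without control ZT16 replicate 6, Ugt2a1 was not called at ZT16 (-0.37; adjusted p = 0.0766, limma).

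The UGT3A enzymes use sugars other than glucuronic acid. Ugt3a1 was lower at ZT16 by -0.47 ± 0.13 (SE; adjusted p = 0.00541, limma) and was not called at ZT8 or ZT12. Ugt3a2 was called at no time, with 95% intervals of -0.35 to 0.17 at ZT8, -0.38 to 0.15 at ZT12 and -0.55 to -0.02 at ZT16. Without knockout ZT8 replicate 3 it was called at ZT16 (-0.30; adjusted p = 0.0376, limma).

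For Ugt1a6b the result depended on the probe, as read in a fit over all kept probes without a missing value. The first-exon probe was lower in knockouts by -0.83 ± 0.16 (SE; adjusted p = 0.000166, limma) at ZT8, -0.95 ± 0.16 (2.37e-05) at ZT12 and -1.09 ± 0.16 (3.31e-06) at ZT16. By contrast, the brighter shared-exon probe, which stands for the gene in the counts above, differed by 0.23 ± 0.09 (0.0533), 0.09 ± 0.09 (0.467) and 0.03 ± 0.09 (0.824). The other shared-exon probe gave 0.29 ± 0.12, 0.11 ± 0.12 and -0.06 ± 0.12. In the fit over genes, the shared-exon probe passed at ZT8 with an adjusted p of 0.0496, the only UGT call in that direction. Without knockout ZT8 replicate 3 its difference was 0.35 (adjusted p = 0.000491, limma). Without control ZT8 replicate 6, ZT12 replicate 2 or ZT16 replicate 6 it was not called (adjusted p = 0.0722, 0.0518 and 0.0515). Since every Ugt1a transcript may hold the shared exons, the 2 kinds of probe can read different sets of transcripts, and the share of each was not measured. The probe named Ugt1a6a starts at chr1:90116514, downstream of both shared-exon probes, so it too may read other Ugt1a transcripts. It was lower at ZT8 (-0.64) and ZT12 (-0.70) and not called at ZT16 (-0.40; adjusted p = 0.0535, limma), where it passed without knockout ZT8 replicate 3 (0.0371). Ugt1a10 was called at no time.

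**Figure D2:**
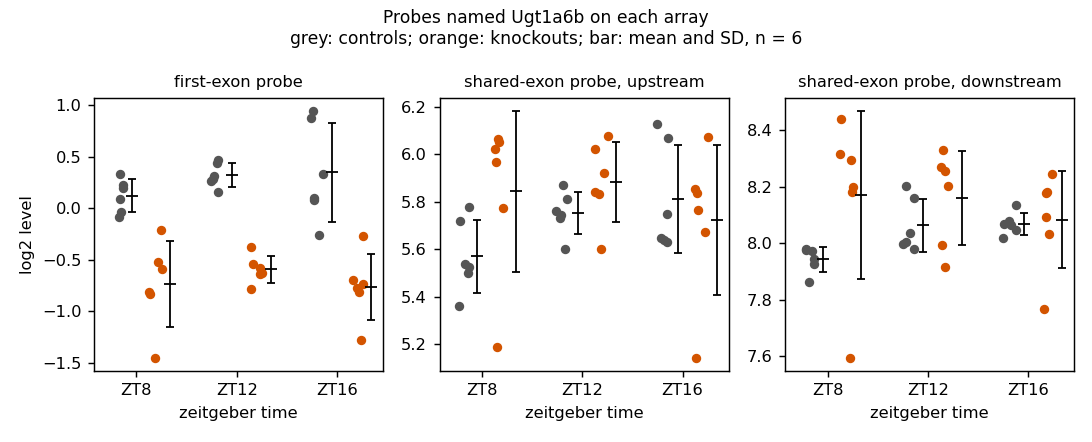
Log2 level on each array (vertical axis) by zeitgeber time for the 3 probes named Ugt1a6b, with controls in grey, knockouts in orange and bars for mean and SD (n = 6). Knockouts lie lower on the first-exon probe at all 3 times, and on the shared-exon probes the groups overlap.

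GST genes of the mu, pi, kappa and zeta classes were mostly lower, and of the 3 alpha genes only Gsta3 was. Gstm6, a mu-class enzyme of the chromosome 3 cluster, was lower at every time. It lay at 4.90, 5.21 and 5.33 in ZT8 controls and 3.32, 3.79 and 3.96 in ZT8 knockouts. At ZT12 it lay at 4.73, 4.92 and 5.29 against 3.06, 3.58 and 3.78, and at ZT16 at 4.56, 4.95 and 5.26 against 2.81, 3.38 and 3.84. No group overlapped, and the differences of -1.43 ± 0.15 (SE; adjusted p = 4.84e-09, limma), -1.48 ± 0.15 (2.08e-09) and -1.50 ± 0.15 (1.38e-09) left knockouts at about the same distance below controls at each time. In the fit over probes, a second Gstm6 probe fell by less, with differences of -0.87, -0.70 and -0.81, all called. Along the same cluster, Gstm7, Gstm3 and Gstm4 were lower at all 3 times and Gstm2 at ZT8 and ZT16. Without control ZT8 replicate 6, Gstm7 (-0.39; adjusted p = 0.0584, limma) and Gstm2 (-0.35; 0.088) were not called at ZT8. Gstm5, at the end of the cluster, differed by 0.09 at ZT8, 0.15 at ZT12 and 0.00 at ZT16 and was not called, with a 95% interval of -0.07 to 0.25 at ZT8. Gstm1's brightest probe is placed by the files on chromosome 5, away from the cluster, and its differences of -0.50, -0.48 and -0.27 were close to those of the chromosome 3 probe, -0.56, -0.42 and -0.32 in the fit over probes.

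Gstp1, the pi-class enzyme, lay at 5.17, 6.28 and 6.70 in ZT8 controls and 4.67, 5.06 and 5.23 in ZT8 knockouts. At ZT12 it lay at 5.31, 6.55 and 6.84 against 4.71, 5.21 and 5.49, and at ZT16 at 5.27, 6.15 and 6.33 against 4.87, 5.17 and 5.38. The single control array at the knockout level at each time was replicate 6 at ZT8, replicate 2 at ZT12 and replicate 6 at ZT16, and it made the groups overlap. Differences were -1.12 ± 0.22 (SE; adjusted p = 0.000218, limma), -1.24 ± 0.22 (4.57e-05) and -0.91 ± 0.22 (0.00162). Without that array they were -1.31 at ZT8, -1.42 at ZT12 and -1.12 at ZT16. Gstp2, its neighbour, was lower by -0.53, -0.66 and -0.47.

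Gstz1, which acts in tyrosine breakdown as maleylacetoacetate isomerase, lay at 7.38, 7.53 and 7.65 in ZT8 controls and 6.42, 6.89 and 7.06 in ZT8 knockouts. At ZT16 it lay at 7.46, 7.64 and 7.79 against 6.42, 6.61 and 6.81. No group overlapped at any time, with differences of -0.68 ± 0.09 (SE; adjusted p = 2.91e-07, limma), -0.93 ± 0.09 (8.83e-10) and -1.02 ± 0.09 (1.08e-10). Gsta3, an alpha-class enzyme that detoxifies aflatoxin epoxide in mice, differed by -0.89, -0.64 and -0.94, and Gstk1, the mitochondrial and peroxisomal kappa enzyme, by -0.50, -0.60 and -0.69, both without overlap at any time. In the fit over probes, the other Gsta3 probes gave -0.94, -0.59 and -1.04, and -1.41, -1.28 and -2.26. Without knockout ZT8 replicate 3, the ZT8 difference of Gsta3 was -0.75. Gsta2 was called at no time, and Gsta4 was higher at ZT8 alone (0.39).

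The GST genes called higher at more than 1 time were Gsto1 and Gstt2. Gsto1, an omega-class enzyme that reduces dehydroascorbate, lay at 5.21, 5.26 and 5.59 in ZT8 controls and 5.60, 5.91 and 6.07 in ZT8 knockouts. It was higher without overlap at every time, by 0.54 ± 0.09 (SE; adjusted p = 1.15e-05, limma), 0.47 ± 0.09 (6.07e-05) and 0.34 ± 0.09 (0.00248). Gsto2 was called higher at ZT16 (2.02), where it was well above background on 5 knockout arrays and 1 control array. The theta genes Gstt1, Gstt2 and Gstt3 lie together on chromosome 10 and went different ways. Gstt1 was lower at ZT12 and ZT16 (-0.33 and -0.57) and Gstt3 at ZT12 and ZT16 (-0.60 and -1.15), and Gstt2 was higher at ZT8 and ZT12. Without control ZT12 replicate 2, Gstt1 (-0.27; adjusted p = 0.0692, limma) and Gstt3 (-0.36; 0.166) were not called at ZT12.

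**Figure D3:**
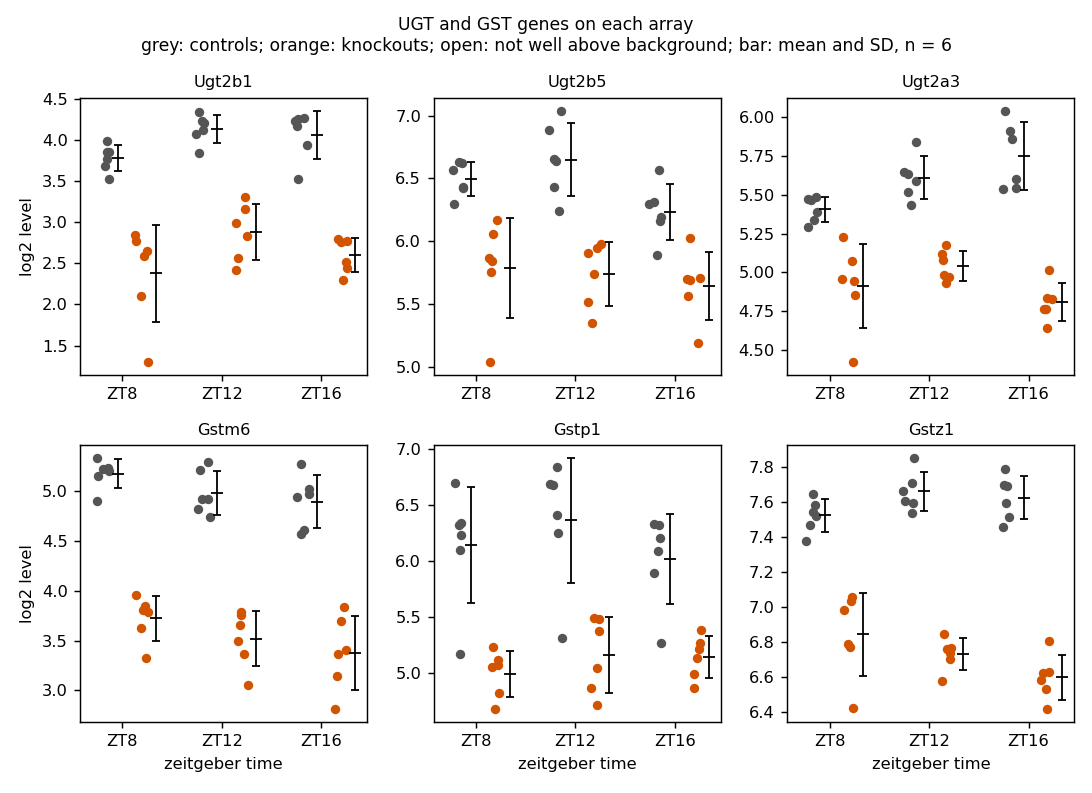
Log2 level on each array (vertical axis) by zeitgeber time for 3 UGT and 3 GST genes, with controls in grey, knockouts in orange and bars for mean and SD (n = 6). Gstm6 and Ugt2b1 knockouts lie below every control at all 3 times, and Gstp1 has 1 control array at the knockout level at each time.

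The SULT2A enzymes sulfate hydroxysteroids and bile acids, and their genes lie in 1 cluster on chromosome 7. Along it on mm9, the probes of Sult2a5, Sult2a2, Sult2a1, Sult2a4, Sult2a3 and Sult2a6 come first (from chr7:14247879-14250418 to chr7:14807923-14811254), followed by Sult2a8 (chr7:14996296-14996355) and Sult2a7 (chr7:15050514-15050573). At ZT8 and ZT12 every fitted difference of the first 6 was above 0, and those of Sult2a8 and Sult2a7 were below 0 at all times. The first 6 passed the filter mostly through knockout arrays and Sult2a7 mostly through controls, so their signs were close to fixed in advance. Sult2a3, Sult2a4 and Sult2a5 were well above background on 0 of 6 controls and 2 or 3 of 6 knockouts at ZT8 and ZT12. These signs alone do not show a pattern along the cluster. Sult2a8, a hepatic bile acid sulfotransferase, lay at 6.91, 7.09 and 7.45 in ZT8 controls and 0.15, 4.95 and 5.84 in ZT8 knockouts. At ZT12 it lay at 6.69, 7.14 and 7.32 against 2.69, 4.91 and 5.78, and at ZT16 at 6.57, 6.71 and 7.11 against 3.21, 4.45 and 4.94. Groups were apart at each time, by -2.87 ± 0.56 (SE; adjusted p = 0.00016, limma), -2.69 ± 0.56 (0.000274) and -2.36 ± 0.56 (0.00119), with far more spread in knockouts. Without knockout ZT8 replicate 3, the lowest array, the ZT8 difference was -2.06 (adjusted p = 6.87e-05, limma).

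Sult2a7 was well above background on all 18 control arrays and on 1 of 6 knockout arrays at each time. Its lowest, median and highest levels were -2.34, -1.54 and -1.24 in ZT8 controls and -6.45, -5.30 and -4.20 in ZT8 knockouts. At ZT12 they were -1.60, -0.93 and -0.62 against -7.30, -6.81 and -5.03. Groups did not overlap at any time. The fitted differences of -3.82, -5.50 and -3.91 depend on values at background in most knockouts and give no exact size.

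Sult2a2 and Sult2a6 were called higher in knockouts at ZT8 and ZT12. Sult2a2 lay at -7.25, -6.97 and -2.63 in ZT8 controls and -1.62, 1.89 and 5.17 in ZT8 knockouts. At ZT12 it lay at -7.41, -7.26 and -4.10 against -4.07, -0.57 and 4.58, and at ZT16 at -7.31, -5.69 and 4.64 against -2.40, -1.38 and 3.56. It was well above background on all 18 knockout arrays and on 1, 1 and 2 of 6 controls at the 3 times, so the fitted differences of 8.03 ± 1.58 (SE; adjusted p = 0.000184, limma) at ZT8 and 7.0 ± 1.58 (0.000678) at ZT12 rest on controls mostly at background. Every knockout lay above every control at ZT8 and ZT12. At ZT16 the groups overlapped and the difference of 2.90 ± 1.58 was not called (0.147). There, control replicate 6 lay at 4.64, above all 6 knockouts, and without it the difference was 4.61 and called (adjusted p = 0.0133, limma). That array was chosen after the data were seen, and dropping the highest control must raise the difference. The gained call is therefore not independent support. Array weights, which count spread-out arrays less, also called the ZT16 difference (4.01, adjusted p = 0.014).

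Sult2a6 followed the same order. Its probe is not among the alike pairs, but probes were not compared with other transcripts, so shared signal was not tested. It lay at -7.28, -6.84 and -3.01 in ZT8 controls and -1.78, 1.62 and 5.06 in ZT8 knockouts, which did not overlap. It was well above background on 6 of 6 knockouts at each time, and on 1, 1 and 3 of 6 controls at ZT8, ZT12 and ZT16. Its differences, which at ZT8 and ZT12 rest on controls mostly at background, were 7.62 ± 1.48 (SE; adjusted p = 0.000156, limma) at ZT8, 6.12 ± 1.48 (0.00135) at ZT12 and 1.95 ± 1.48 (0.309) at ZT16. Without control ZT16 replicate 6, chosen after the data were seen, the last was 3.47 (adjusted p = 0.0492, limma), which is not independent support. Sult2a1 was well above background on 6 of 6 ZT8 knockouts and 0 of 6 ZT8 controls. With controls raised to the lowest signal above background on their array, the ratio of mean levels was 20.4-fold, a bound without an interval. The adjusted p of 0.00221 (limma) belongs to the fitted difference, and the probe is alike to that of Sult2a2. By ZT16 Sult2a1 was above background on 5 knockouts and 3 controls, with levels of -5.87, -3.88 and 0.79 against -7.31, -4.96 and 3.40, and a difference of 0.02 ± 1.50 that was not called. Without control ZT16 replicate 6 this was 1.34 (adjusted p = 0.502, limma). Sult2a4 was called at ZT8 alone, where it was above background on 3 of 6 knockouts and 0 of 6 controls, so no size is given. It was not called without knockout ZT8 replicate 3 (adjusted p = 0.0655, limma), and its probe is among those alike to Sult2a1. Sult2a3 and Sult2a5 were called at no time, but Sult2a3 passed at ZT8 without control ZT16 replicate 6 (adjusted p = 0.0429, limma).

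The knockout arrays with the highest Sult2a2 were also low in Sult2a8. At ZT8, replicates 3 and 2 had Sult2a2 at 5.17 and 4.30 and Sult2a8 at 0.15 and 3.83, and replicate 5 had Sult2a2 at -1.62 and Sult2a8 at 5.84. At ZT12, replicates 6 and 1 had Sult2a2 at 4.58 and 4.46 and Sult2a8 at 3.15 and 2.69, against -4.07 and 5.38 in replicate 4. At ZT16, replicate 6 had Sult2a2 at 3.56 and Sult2a8 at 3.21, the highest and the lowest of their group. In control ZT16 replicate 6, with Sult2a2 at 4.64, Sult2a8 was 6.59, within the range of its own group.

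Sult3a1, an amine sulfotransferase, was well above background on 6, 5 and 6 of 6 knockouts and 1, 1 and 4 of 6 controls at ZT8, ZT12 and ZT16. Against controls mostly at background, it was higher in knockouts at ZT8 (2.90 ± 1.11 SE; adjusted p = 0.0414, limma) and ZT12 (2.78 ± 1.11; 0.0441). It was not called at ZT16 (-0.22 ± 1.11; 0.896). Without control ZT16 replicate 6 the last was 1.09 (adjusted p = 0.405, limma). A second Sult3a1 probe was called at no time (2.34, 2.01 and 0.10). Its lowest, median and highest levels were -7.0, -6.20 and -1.99 in ZT8 controls and -4.70, -1.92 and -0.87 in ZT8 knockouts. Knockout ZT8 replicates 2 and 3, highest in Sult2a2, were lowest in Sult3a1 at -4.50 and -4.70. Among controls, Sult3a1 was highest at 2.12 in ZT16 replicate 6, -1.28 in ZT12 replicate 2 and -1.99 in ZT8 replicate 6, the arrays that were also highest in Sult2a2.

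**Figure D4:**
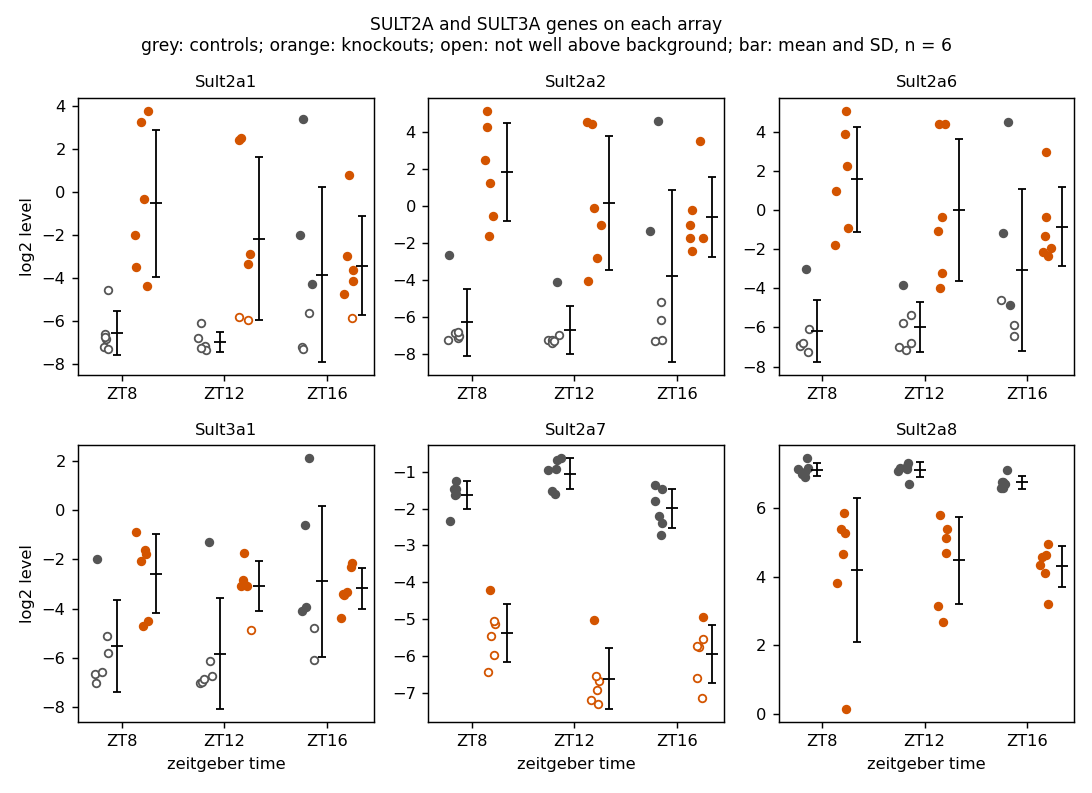
Log2 level on each array (vertical axis) by zeitgeber time for 6 SULT genes, with controls in grey, knockouts in orange, open points not well above background and bars for mean and SD (n = 6). Sult2a1, Sult2a2 and Sult2a6 are mostly open in controls with single high control arrays, Sult2a7 is mostly open in knockouts, and Sult2a8 is lower in every knockout.

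The SULT1 genes act on phenols, thyroid hormone, catecholamines and estrogens, and 3 of them lie next to the Ugt2a1 gene on chromosome 5. There, Sult1b1 was lower, and Sult1d1 and Sult1e1 were higher at ZT8, while the neighbouring UGT genes were lower or not called. Sult1c1 was lower at each time (-1.06, -0.57 and -1.14), and Sult1c2 at ZT12 and ZT16 (-0.59 and -0.71). Sult1a1, the main phenol sulfotransferase of liver, was higher at ZT8 (0.56) and ZT12 (0.68) and not at ZT16 (-0.05). Sult5a1 was higher at ZT8 (0.88) and Sult4a1 lower at ZT16 (-0.61).

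The genotype difference varied with time for 6 of the 50 members by limma's moderated F test, against 8.46% of all genes: Sult1b1, Sult1d1, Sult1e1, Gstt2, Sult2a7 and Ugt2b34. Sult1b1, which sulfates thyroid hormone, had lowest, median and highest levels of 2.88, 3.31 and 3.53 in ZT8 controls and 3.06, 3.29 and 3.61 in ZT16 controls. In knockouts it fell from 2.03, 2.61 and 3.08 at ZT8 to 1.36, 1.52 and 1.72 at ZT16. The control groups overlapped across time and the knockout groups did not. The difference was -0.78 ± 0.14 (SE; adjusted p = 6.96e-05, limma) at ZT8, -1.22 ± 0.14 (4.49e-08) at ZT12 and -1.76 ± 0.14 (3.56e-11) at ZT16, and it varied with time (F test adjusted p = 0.00569).

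Sult1d1, a catecholamine sulfotransferase, lay at 2.74, 3.07 and 3.29 in ZT8 controls and 3.72, 4.06 and 4.88 in ZT16 controls. In knockouts it lay at 3.75, 4.45 and 4.94 at ZT8 and 3.92, 4.53 and 4.63 at ZT16. Controls rose from ZT8 to ZT16 by 1.08 (adjusted p = 1.95e-05, limma) and knockouts changed by 0.01 (0.968). The difference between genotypes was 1.41 ± 0.18 (SE; adjusted p = 2.09e-07, limma) at ZT8, 0.91 ± 0.18 (0.000114) at ZT12 and 0.34 ± 0.18 (0.12) at ZT16, with an F test adjusted p of 0.0169. The ZT16 value passed under 4 of the other settings, for example 0.46 (adjusted p = 0.0163, limma) in the authors' table.

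Sult1e1, the estrogen sulfotransferase, showed a larger rise in controls. It lay at -6.24, -4.99 and -3.96 in ZT8 controls, above background on 4 of 6, and at -2.58, -2.21 and -1.67 in ZT16 controls. Knockouts lay at -3.56, -2.97 and -2.75 at ZT8 and -2.83, -2.50 and -1.93 at ZT16. The rise from ZT8 to ZT16 was 2.88 in controls (adjusted p = 2.37e-06, limma) and 0.64 in knockouts (0.268). The genotype difference was 2.02 ± 0.41 (SE; adjusted p = 0.000239, limma) at ZT8 without overlap, 0.30 ± 0.41 (0.588) at ZT12 and -0.22 ± 0.41 (0.698) at ZT16, with an F test adjusted p of 0.0251.

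Gstt2, a theta-class enzyme, lay at 2.89, 3.27 and 3.51 in ZT8 controls and 3.47, 4.24 and 4.43 in ZT8 knockouts. At ZT16 it lay at 3.01, 3.37 and 3.65 against 3.24, 3.50 and 3.73, and the groups overlapped at both times. The differences were 0.88 ± 0.14 (SE; adjusted p = 1.36e-05, limma) at ZT8, 0.58 ± 0.14 (0.00148) at ZT12 and 0.10 ± 0.14 (0.624) at ZT16. Its F test had an adjusted p of 0.0314. A second Gstt2 probe, 707 bases away in the files' coordinates, ran the other way in time, with differences of 0.48 (adjusted p = 0.107, limma over probes), 1.06 (0.000501) and 1.40 (1.48e-05). Both probes were higher in knockouts at ZT12, and the time at which the difference was largest depended on the probe. Ugt2b34 differed by -0.02 ± 0.12 (SE; adjusted p = 0.936, limma) at ZT8, -0.57 ± 0.12 (0.0002) at ZT12 and -0.49 ± 0.12 (0.00111) at ZT16, with an F test adjusted p of 0.0492. Without knockout ZT8 replicate 3, its lowest array, the ZT8 difference was 0.11. Sult2a7 passed the F test at 0.0453, on knockout values mostly at background.

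**Figure D5:**
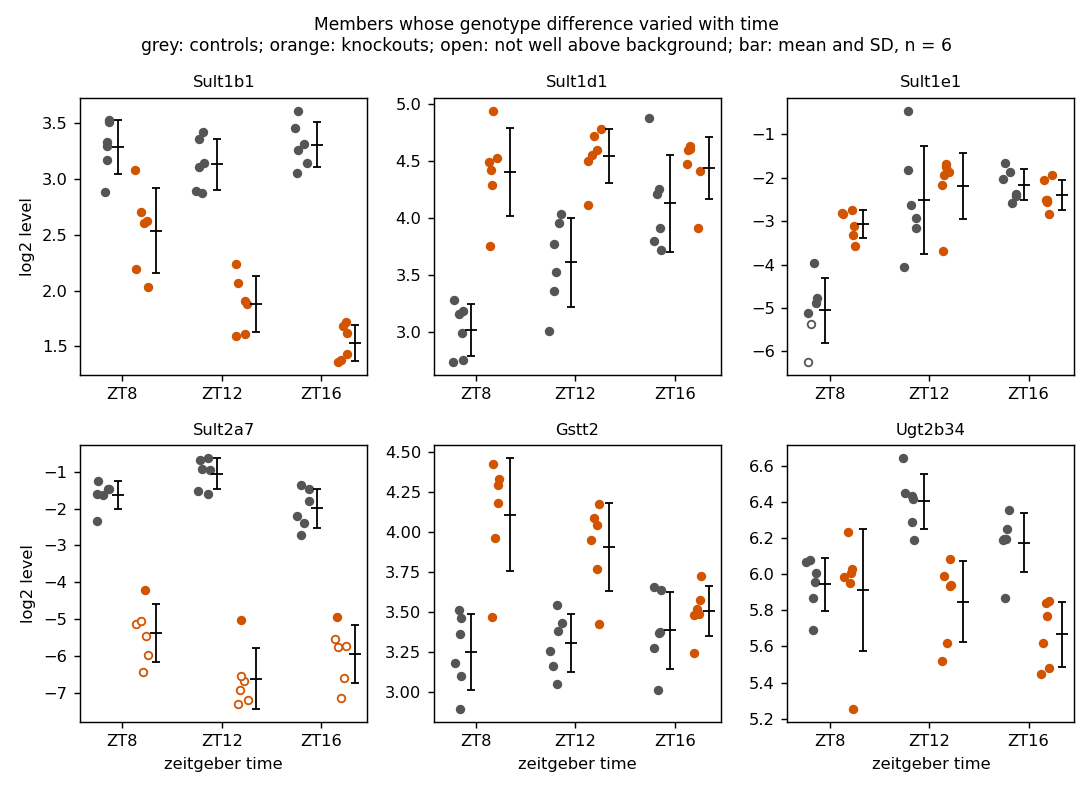
Log2 level on each array (vertical axis) by zeitgeber time for the 6 members that passed the F test, with controls in grey, knockouts in orange, open points not well above background and bars for mean and SD (n = 6). Sult1d1 and Sult1e1 rise with time in controls to the knockout level, and Sult1b1 falls with time in knockouts.

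Within genotypes, 9 members changed between ZT8 and ZT16 in controls, 7 of them upward, where 26.6% of all genes were called. In knockouts 7 members changed, all downward, where 28.9% of all genes were called. The 2 comparisons share no array. Sult1c2 fell in both, by -1.13 in controls (adjusted p = 2.49e-06, limma) and -1.47 in knockouts (3.23e-08). Without control ZT16 replicate 6 the control count was 6, and with array weights it was 14.

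The genes that feed the conjugation reactions were read from lists chosen with earlier results of these data known. Counts of called list genes, both directions together, stand against 35.4%, 42.2% and 39.9% of all genes called at ZT8, ZT12 and ZT16. The counts of regulators and of xenobiotic receptor targets at ZT12 and ZT16 lay close to or below these shares. So did the counts of UDP-sugar supply, sulfate donor supply and enzymes that split glucuronides or sulfates at ZT16. Of 6 genes of UDP-sugar supply, 4 were lower and 1 higher at ZT8, 4 lower at ZT12 and 2 lower at ZT16. Ugdh, which makes UDP-glucuronic acid, was lower at ZT8 (-0.64 ± 0.15 SE; adjusted p = 0.0012, limma) and ZT12 (-1.21) and not called at ZT16 (-0.19). Entpd5, an endoplasmic reticulum UDPase, was lower by -0.34, -0.94 and -0.55 at the 3 times. Of 9 genes of sulfate donor supply, 4, 4 and 3 were lower and 1 was higher at each time. The higher one was Papss2, a PAPS synthase, by 0.87, 0.47 and 0.33, and Slc26a1, a sulfate carrier, was lower by -0.47, -1.01 and -0.88. Of 14 glutathione genes tested, 5 were lower at each time and 4, 3 and 4 were higher. Gclc, the catalytic subunit of the rate-limiting enzyme of glutathione synthesis, was lower by -0.72, -1.11 and -0.68.

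Among 7 carriers that export conjugates, 3 were higher and 1 lower at each time. Abcc4 was higher by 1.27, 1.63 and 1.20 and Abcc3 by 1.18, 0.49 and 0.55, both exporters of the blood-facing membrane, and Abcg2 of the canalicular membrane was lower by -1.52, -1.78 and -1.61. Of 15 genes of methylation, acetylation and other conjugations, 8, 9 and 8 were lower and 2, 1 and 1 higher, with medians of -0.46, -0.53 and -0.52. Tpmt, which methylates thiopurines, was lower by -1.06, -1.25 and -1.25, and Nnmt, which methylates nicotinamide, was higher by 1.80, 1.15 and 0.93. Of 5 listed enzymes that split glucuronides or sulfates, 2, 1 and 1 were higher and 2, 2 and 1 lower. The higher gene at ZT12 and ZT16 was Sulf2 (2.15 and 1.44), and Gusb was higher at ZT8 alone (0.33). Action of these enzymes on drug or hormone conjugates was not tested. Of 15 regulators of these genes, 4, 2 and 0 were higher and 5 lower at each time. The lower ones included the bile acid receptor gene Nr1h4 (-0.53, -1.21 and -1.42). Of 10 targets of xenobiotic receptors, 4, 3 and 2 were higher and 2, 2 and 1 lower; Cyp1a2 was lower by -1.85, -1.50 and -1.67.

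Sex-biased liver genes moved beside the female-biased SULT genes and Gstp1. Of 9 male-biased genes, 7, 7 and 6 were lower at ZT8, ZT12 and ZT16 and 0 higher, with medians of -5.06, -3.31 and -2.94. Some knockout values lay at background, such as Hsd3b5 in ZT8 replicates 2 and 3 (-5.21 and -6.69). These medians may therefore give no exact size. Of 7 female-biased genes, 6, 4 and 2 were higher and 0, 1 and 1 lower, with medians of 1.96, 1.89 and 0.15. Beside 35.4%, 42.2% and 39.9% of all genes called at those times, the female-biased count at ZT16 lay close. Hsd3b5, a male-biased gene, lay at -2.16 in control ZT16 replicate 6, against 3.00 to 5.09 in the other ZT16 controls. The part of these genes' shared changes in the SULT and GST results was not tested.

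Markers of other liver cells were read beside the same shares of all genes (35.4%, 42.2% and 39.9%), which count both directions together. The endothelial count at ZT8 and the macrophage counts at ZT8 and ZT16 lay near or below them. So did the stellate, bile duct and hepatocyte counts at all times. Of 7 endothelial markers, 0, 6 and 5 were higher at ZT8, ZT12 and ZT16, and their summed linear level ran from 24.7 to 31.1 times the array's 75th percentile in ZT12 controls and from 32.0 to 46.4 in ZT12 knockouts. Of 7 macrophage markers, 2, 5 and 2 were higher, with sums of 37.8 to 120 in ZT12 controls and 86.1 to 244 in ZT12 knockouts. Of 7 stellate markers, 0, 3 and 3 were higher and 0 lower, above the share of higher calls at ZT12 and ZT16. Their sums ran from 37.0 to 65.5 in ZT12 controls and from 69.7 to 79.5 in ZT12 knockouts. At ZT8 and ZT16 the stellate sums overlapped. Of 6 bile duct markers, 0, 0 and 1 were higher and 0, 1 and 0 lower. Of 6 blood markers tested, 2, 4 and 4 were higher and 1, 2 and 1 lower. Of 3 markers of intestine, pancreas or kidney tested out of 7, 1 was higher and 2 lower at each time. Of 8 hepatocyte markers, 2, 3 and 3 were lower and 0, 1 and 0 higher, with sums of 4268 to 5165 in controls and 3473 to 4917 in knockouts at ZT8, 4751 to 5374 and 3643 to 4803 at ZT12, and 4816 to 5991 and 4093 to 4576 at ZT16. The groups overlapped at ZT8 and ZT12, and at ZT16 every knockout lay below every control. The sums include Ttr, whose promoter drives the Cre and which was lower by -1.12, -1.02 and -0.97. Its part in the lower sums was not tested. The median log2 difference of the hepatocyte markers was -0.07, -0.04 and -0.16 at the 3 times. The part of these cell markers' changes in the lower UGT and GST values was not tested.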

How the data were processed

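Total liver RNA of 36 mice, 200 ng each per the labels, was labelled with Cy3 and read on 1-colour Agilent arrays. Per the file headers, the deposited spot values are fluorescence intensity, already corrected for background and spatial trend, with no scaling across arrays. Extraction used Agilent Feature Extraction 10.10.1.1, and limma was used by the authors, per the submitters' processing notes. The deposited spot flags are other values of 0 or 1. The authors' deposited table holds log2 values whose sorted columns are identical, so it is quantile normalized. It served as an alternative.

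From the log2 of this signal, the array's own 75th percentile was subtracted. Outlier spots were left out, spots of a probe averaged and probes kept if well above background on at least 6 arrays. Of the 34769 probes passing, 91 lacked a value and were dropped. The rest covered 23054 genes, each represented by its brightest probe. RefSeq accessions gave 22633 probes a symbol, 1048 of them changed. Probe positions are mm9 and promoters GRCm38.p6, which were not mixed. The 75th percentile signal was 311 to 525 intensity units and local background 18 to 31. The number of arrays limits the precision, and p-values measure the spread between mice.

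Fits used limma 3.58.1 in R 4.3.3, with the 6 groups and 3 wash batches given in the labels (11 to 13 arrays) as fixed effects, 28 residual and 2.26 prior degrees of freedom, and Benjamini-Hochberg adjustment at 0.05. A moderated F test compared genotype effects between times. The scripts were tested on simulated data. Same-numbered arrays were checked for pairing: over 90 pairs the median correlation of deviations was 0.02 and 14 pairs exceeded 0.1, so numbers do not pair arrays.

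Members and lists were chosen with earlier results of these data known. Named are up to 6 members per family called in most genotype comparisons (ties by mean size), up to 8 that passed the F test, members with only a bound, and up to 3 genes per list with the smallest p. The result of 1 list gene is not reported here. Other members were named after their values were seen, to account for all 50. Gstp3, Sult6b2 and Sult3a2 are on the array under older names and were not counted. Alternatives covered background, normalization, the dim-probe filter, blocks, weights, probe averaging and leaving out arrays.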

Additional observations from a re-analysis of the deposited data

Results flagged for a closer look

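The 23 named members in 6 groups gave 138 sets of 6 arrays, and chance alone sets 1 array apart in about 1 of 20 such sets (6.9 of 138). An array stood apart in 20. The sets share arrays and some share alike probes, so they are not independent and the counts are no test of an excess. Knockout ZT8 replicate 3 was low for Gsta3 at 7.37 (others 8.09 to 8.43), Sult2a8 at 0.15 (others 3.83 to 5.84), Ugt2b34 at 5.25 (others 5.95 to 6.24), Ugt2b36 at 4.70 (others 5.37 to 5.64), Ugt2b37 at 3.66 (others 4.40 to 4.68), Ugt2b38 at 6.02 (others 6.69 to 7.06) and Ugt2b5 at 5.04 (others 5.75 to 6.17), all log2 levels.

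Control ZT8 replicate 6 was high for Sult2a1 at -4.56, Sult2a2 at -2.63 and Sult2a6 at -3.01. Control ZT12 replicate 2 was high for Sult2a2 at -4.10 (others -7.41 to -6.96). Knockout ZT16 replicate 6 was high for Sult2a2 at 3.56 and Sult2a6 at 2.97, and low for Sult1d1 at 3.92.

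Single arrays of other groups stood apart as follows. Gstm7 was 0.54 in knockout ZT12 replicate 1, and Sult1e1 was -3.69 in knockout ZT12 replicate 6. Sult2a7 was -5.03 in knockout ZT12 replicate 3 and -2.34 in control ZT8 replicate 1. Sult2a8 was 7.11 in control ZT16 replicate 1, and Ugt2b34 was 5.87 in control ZT16 replicate 6.

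The genotype difference varied with time by the F test for 6 members. The ZT16 difference minus the ZT8 difference was -0.98 for Sult1b1, -1.06 for Sult1d1, -2.24 for Sult1e1, -0.78 for Gstt2, -0.092 for Sult2a7 and -0.48 for Ugt2b34 (log2). For Sult2a7 it was the ZT12 difference that lay apart.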

How the results depend on the processing

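Of 1158 comparisons of a named member's value with its value under an alternative, 1136 kept direction and side of the threshold. Another 8 newly passed, 2 no longer passed and 12 uncalled values changed sign, those of Sult2a1 at ZT16 and Ugt2b34 at ZT8. Counts of members called in either direction, per family and per time comparison, stayed within 1.5 times except for these. With probes well above background on all arrays only, 6 SULT genes were called at ZT8 and 6 at ZT12, since fewer genes were tested. The count of members whose genotype difference varied with time was 3 with no filter on dim probes and 3 with the mean over all probes of a gene. The count of members changed from ZT8 to ZT16 in controls was 14 with array weights. The cause of the last 3 was not tested. With each of 4 arrays left out in turn, the time-dependent count was 4 to 9, the control time count 6 to 12 and the knockout time count 7 to 10. Under the replicate block the genotype counts of each family moved by at most 1, and the time-dependent count was 4. Without control ZT8 replicate 6 Gstm7 was not called at ZT8 (-0.39), and with normexp Sult2a1 was not called at ZT12 (2.16). The arrays left out were 3 controls and 1 knockout, the controls chosen after the data were seen. Restricting to probes measured on every array moved the members called higher from 13 to 7 at ZT8 (37.1% to 25% of those called), from 8 to 4 at ZT12 and from 2 to 1 at ZT16; the ZT16 count was 4 under 5 other settings. Genes near background limit what can be said of Sult2a sizes.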
